A study of Mus musculus with 6 samples.

Results

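The 9 genes described here are core members of the Hedgehog pathway, chosen by name, with earlier results of these data known. They are the ligands Ihh and Shh, the receptor Ptch1, the decoy receptor Hhip and the signal transducer Smo. The others are the inhibitor Sufu and the transcription factors Gli1, Gli2 and Gli3. All 9 were measured, each by 1 probe set, among 19938 genes with a probe set of exactly 1 gene symbol. They were compared between colon tumours of 2 genotypes, 3 tumours each. The Dnmt1chip/c; ApcMin/+ tumours, called hypomethylated in the labels, came from mice with a hypomorphic (chip) and a conventional knockout (c) allele of Dnmt1, the gene for the maintenance DNA methyltransferase. The control tumours were Dnmt1chip/+; ApcMin/+, so they also carried the chip allele beside a wild-type one. Mice of both genotypes were F1 hybrids of C57BL/6 and 129Sv4, carried ApcMin, which truncates the tumour suppressor Apc, were given 2% (w/v) dextran sodium sulfate at 6 weeks, a compound that injures the colon, and had tumours taken at 20 weeks. The design text names no cell type to which the Dnmt1 alleles are restricted. The labels name no mouse for a tumour. The descriptions give all 3 Dnmt1chip/c tumours the same number and 2 of the 3 Dnmt1chip/+ tumours another, so the p-values cover the spread between these tumours, and differences between single mice cannot be told apart from those between genotypes.

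Values are centred log2 values, with 0 at the median of the 6 tumours for each probe set, so they show differences and hold no level. Base 2 was inferred, as no label states it. Centring on 6 values makes the middle pair mirror images, so where the groups do not overlap the nearest tumours of each have the same distance from 0. In the Dnmt1chip/c tumours Dnmt1 itself was lower, with a log2 difference of -0.87 ± 0.06 (SE; limma, adjusted p = 3.13e-04). Of all genes 2124 were higher and 4256 lower at an adjusted p under 0.05. The step of the deposited numbers allows an inference on level: a gene on the coarser step probably had none of its 6 log2 values under 8 before they were centred. All 10 general epithelial markers were on that step, as were 13 of 16 fibroblast, 6 of 12 smooth muscle, 10 of 12 endothelial, 9 of 10 macrophage, 1 of 7 T and B cell and 0 of 6 enteric glia and neuron markers. Among the Hedgehog genes Ihh, Shh, Ptch1, Smo and Sufu were on the coarser step, and Gli1, Gli2, Gli3 and Hhip were not.

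Hedgehog signalling in the colon is known as a conversation between tissue layers. The epithelium secretes the ligands, Ihh mainly from mature surface cells, and the fibroblasts and muscle cells beneath them receive it. Without ligand Ptch1 holds Smo inactive, and the Gli proteins, Gli3 above all, are cut into repressors. With ligand Smo is released at the primary cilium and Gli activators turn on target genes, among them Ptch1, Hhip and Gli1 themselves, which damp or amplify the signal. In the mouse gut the mesenchymal cells answer with factors such as Foxf1, Foxl1 and Bmp4.

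In these tumours Ptch1, Gli3, Smo and Sufu fell and neither ligand passed the test. In either direction 4 of 9 were called, beside 32% of all genes. The 4 were all lower, a share of 44.4% beside 21.3% of all genes called lower, and 0 of 9 were higher, beside 10.7% of all genes. Among genes on the coarser step, where 3 of the 4 lie, 33.8% of 10142 were called lower. The median difference of the 9 was -0.27 on the log2 scale, beside -0.0058 over all genes. The groups did not overlap for 5 of the 9, or 55.6%, beside 46.4% of all genes. Fibroblast markers fell in 10 of 16 cases in the same tumours, and in bulk tissue fewer cells of a type and less RNA per cell cannot be told apart.

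**Figure D1:**
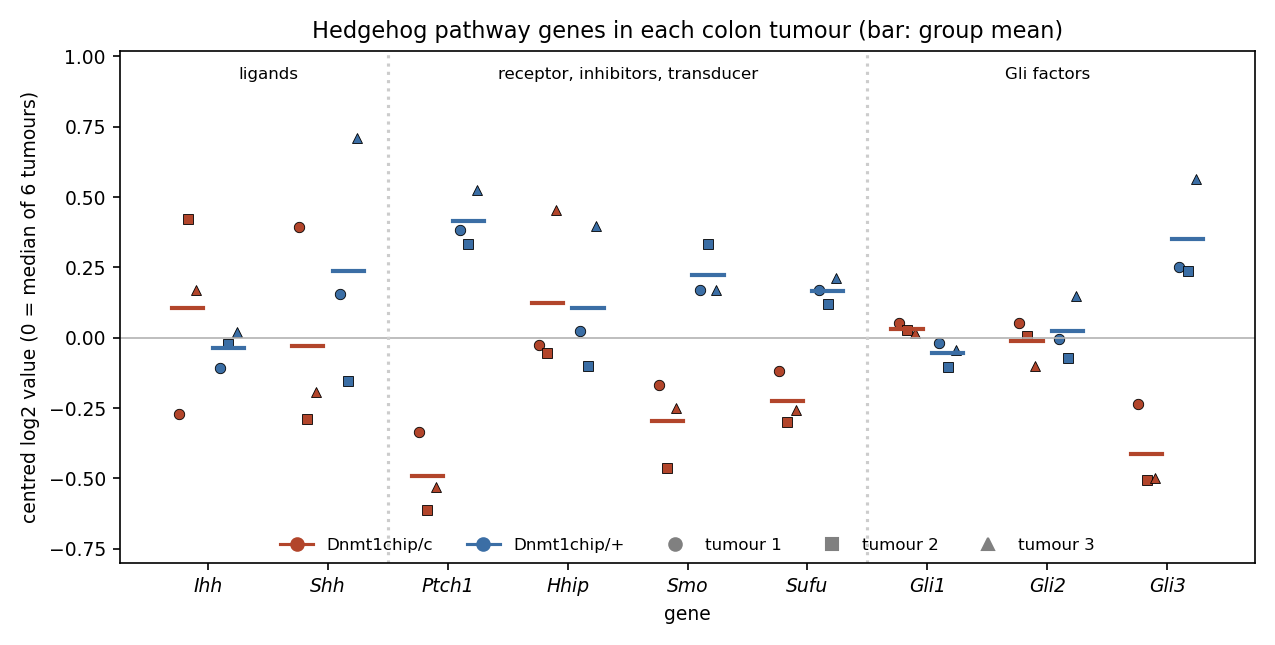
Centred log2 value (vertical axis) of each of the 9 genes (horizontal axis) in every tumour, Dnmt1chip/c in red and Dnmt1chip/+ in blue, with symbols for the tumour number and bars for group means. The Ptch1, Smo, Sufu and Gli3 points of the 2 groups lie on opposite sides of 0, with Dnmt1chip/c below. Those of Gli1 do too, close to 0 and with Dnmt1chip/c above, while those of Ihh, Shh, Hhip and Gli2 are mixed.

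Ihh, the ligand of the mature colon epithelium, had centred log2 values of -0.27, 0.42 and 0.17 in Dnmt1chip/c tumours 1, 2 and 3, against -0.11, -0.022 and 0.022 in Dnmt1chip/+ tumours. The Dnmt1chip/c values lay on both sides of the Dnmt1chip/+ values, which sat close together. The means were 0.11 ± 0.35 and -0.036 ± 0.066 (SD, n = 3 each), a difference of 0.14 with a 95% interval of -0.24 to 0.53 (limma, adjusted p = 0.572). The upper end of this interval is a 1.44-fold higher level in Dnmt1chip/c tumours, so an unchanged level was not shown. The value rested on single tumours: without Dnmt1chip/c replicate 1 the difference was 0.33 and passed (limma, adjusted p = 0.0377), and without Dnmt1chip/c replicate 2 it was -0.016. Markers of mature colonocytes, which normally make Ihh, were called higher in 13 of 14 cases, or 92.9%, beside 10.7% of all genes. Their median difference was 2.59 on the log2 scale. Their mean centred value ran from 0.90 to 1.55 in Dnmt1chip/c tumours, lowest in tumour 1, against -1.57 to -0.94 in Dnmt1chip/+ tumours.

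Shh, a ligand that is scarce in the normal adult colon and made near the crypt base, had values of 0.40, -0.29 and -0.19 in Dnmt1chip/c tumours, against 0.15, -0.15 and 0.71 in Dnmt1chip/+ tumours. The groups overlapped, with the highest value in Dnmt1chip/+ tumour 3. The difference was -0.27 (95% interval -0.87 to 0.34; limma, adjusted p = 0.488), the widest interval among the 9 genes. In the Dnmt1chip/c group Ihh and Shh did not follow each other: tumour 1 had the lowest Ihh value and the highest Shh value, and tumour 2 the reverse. In the Dnmt1chip/+ group tumour 3 was the highest for both.

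Ptch1, the receptor and a feedback target, had the largest difference of the 9. Its values were -0.33, -0.61 and -0.53 in Dnmt1chip/c tumours, against 0.38, 0.33 and 0.52 in Dnmt1chip/+ tumours. All Dnmt1chip/c tumours lay below all Dnmt1chip/+ tumours, with a gap between the groups wider than the spread within either. The log2 difference was -0.91 ± 0.09 (SE), a level 1.87-fold lower in Dnmt1chip/c tumours (95% interval -1.12 to -0.69; limma, adjusted p = 7.64e-04). A two-sided exact permutation test over the 20 assignments of tumours gave Ptch1, Gli3, Smo and Sufu p = 0.1 each, as low as this design can go. Gli1, which limma did not call, had the same value in that test. So has any gene whose groups do not overlap, 46.4% of all genes. The Ptch1 difference was at the 2.15 percentile of all genes, counted from the largest decrease.

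Hhip, a surface protein that binds and sequesters the ligand and is also a target, was not called. It had values of -0.024, -0.054 and 0.45 in Dnmt1chip/c tumours, against 0.024, -0.10 and 0.40 in Dnmt1chip/+ tumours. In both groups tumour 3 was far above the other two, and the means were 0.12 ± 0.28 and 0.11 ± 0.26 (SD, n = 3 each). The difference was 0.018 (95% interval -0.40 to 0.43; limma, adjusted p = 0.954), and its sign turned under quantile normalization (-0.026).

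Smo, the transducer that Ptch1 restrains, had values of -0.17, -0.46 and -0.25 in Dnmt1chip/c tumours, against 0.17, 0.33 and 0.17 in Dnmt1chip/+ tumours. The groups did not overlap, and Smo fell by 0.52 ± 0.09 (SE), 1.43-fold lower (limma, adjusted p = 0.00593). Sufu, which holds Gli proteins in the cytoplasm, had values of -0.12, -0.30 and -0.26 in Dnmt1chip/c tumours, against 0.17, 0.12 and 0.21 in Dnmt1chip/+ tumours. It fell by 0.39 ± 0.07 (SE), 1.31-fold lower, the smallest of the called changes (limma, adjusted p = 0.00514), again with no overlap. An activator of the pathway and an inhibitor were thus both lower, and the profiles of Smo and Sufu over the 6 tumours differed by a root mean square of 0.11. This measure depends on how much the genes vary: Gli1 and Gli2, which varied little, differed by 0.093.

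The Gli factors split. Gli3, the main repressor form of the family, had values of -0.24, -0.51 and -0.50 in Dnmt1chip/c tumours, against 0.25, 0.24 and 0.56 in Dnmt1chip/+ tumours, with no overlap. It fell by 0.76 ± 0.12 (SE), 1.70-fold lower (limma, adjusted p = 0.00326). Its profile was the closest to that of Ptch1 among the other 8 genes, with a root mean square difference of 0.092 over the 6 tumours. Gli2, the main activator, had values of 0.054, 0.0056 and -0.099 in Dnmt1chip/c tumours, against -0.0056, -0.073 and 0.15 in Dnmt1chip/+ tumours, and differed by -0.037 (95% interval -0.22 to 0.15; limma, adjusted p = 0.771).

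Gli1, the target most often used to read the pathway, was not called either. Its values were 0.052, 0.026 and 0.018 in Dnmt1chip/c tumours, against -0.018, -0.10 and -0.043 in Dnmt1chip/+ tumours. The groups did not overlap, with the Dnmt1chip/c tumours above, but the difference of 0.086 ± 0.05 (SE) did not pass (95% interval -0.039 to 0.21; limma, adjusted p = 0.273). Gli1 hardly varied: its range over the 6 tumours was 0.15, at the 10.2 percentile of all genes, where that of Ptch1 was 1.14 at the 93.2 percentile. Gli2 had a range of 0.25, at the 29.1 percentile. No detection call was used, so whether the Gli1 and Gli2 probe sets measured signal above background was not tested.

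The genes nearest to each of the 9 over the 6 tumours, by root mean square difference of centred values, give a sense of these profiles. For Ptch1 they were Fabp5, Tet1 and Slc25a23, at 0.031, 0.044 and 0.046, and for Gli3 Scrn1, Mmp11 and Prkar1b, at 0.039 to 0.050. For Smo they were Ago1, Creb3l2 and Poglut2, and for Sufu Ccdc50, Serinc1 and Alkbh6, all within 0.018 to 0.025. The nearest to Gli1 were Bpifa1, Lonrf2 and Olfr1537, an olfactory receptor gene, at 0.011 to 0.016, and to Gli2 Rtl4, Camk1g and Capza3, at 0.020 to 0.021. Ihh had Ccdc87, Tst and Synpo at 0.052 to 0.068. Nothing came as near to Shh or Hhip: Pcdhb5, Bach2 and Pnliprp2 lay at 0.11 to 0.16 from Shh, and Tdpoz1, Olfr1414 and Stoml1 at 0.12 to 0.14 from Hhip.

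Relative to Ihh in the same tumour, Ptch1 was lower in every Dnmt1chip/c tumour than in any Dnmt1chip/+ tumour. The centred value of Ihh minus that of Ptch1 was 0.062, 1.04 and 0.70 in Dnmt1chip/c tumours, against -0.49, -0.36 and -0.50 in Dnmt1chip/+ tumours, with no overlap. Ptch1 alone already separated the groups, so this is no separate result on ligand and target. Centred values hold no level, so the difference is not a ratio of ligand to receptor. For Ihh minus Gli1 the values were -0.32, 0.40 and 0.15 in Dnmt1chip/c tumours, against -0.090, 0.081 and 0.065 in Dnmt1chip/+ tumours, and the groups overlapped. For Ihh minus Hhip they were -0.25, 0.48 and -0.28 in Dnmt1chip/c tumours, against -0.13, 0.080 and -0.38 in Dnmt1chip/+ tumours, and overlapped too. Of these 3 target genes of the pathway Ptch1 alone was called, and differences between their responses were not tested.

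Promoter sequences of Ihh and of the 4 genes that fell are shown because the genotypes differ in DNA methylation, which falls on CpG dinucleotides. Each is the 250 bases before a start site, from RefSeq, with every CpG in capitals. For Ptch1 this site lies inside the gene, which on the minus strand begins at 63573460. No methylation was measured at these sites.
Ihh (chr1:74951673-74951922, minus strand, GRCm38.p6): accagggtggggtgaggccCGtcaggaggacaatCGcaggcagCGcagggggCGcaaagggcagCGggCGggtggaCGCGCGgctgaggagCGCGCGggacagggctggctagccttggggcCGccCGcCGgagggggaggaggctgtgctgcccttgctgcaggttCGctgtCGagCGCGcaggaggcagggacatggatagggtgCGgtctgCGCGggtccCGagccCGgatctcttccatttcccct
Ptch1 (chr13:63565736-63565985, minus strand, GRCm38.p6): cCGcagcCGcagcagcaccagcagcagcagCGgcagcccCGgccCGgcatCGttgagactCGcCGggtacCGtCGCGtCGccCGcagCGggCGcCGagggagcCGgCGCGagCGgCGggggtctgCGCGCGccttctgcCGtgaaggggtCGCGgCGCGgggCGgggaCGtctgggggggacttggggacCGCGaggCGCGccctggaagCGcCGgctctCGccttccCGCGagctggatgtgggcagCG
Gli3 (chr13:15463473-15463722, plus strand, GRCm38.p6): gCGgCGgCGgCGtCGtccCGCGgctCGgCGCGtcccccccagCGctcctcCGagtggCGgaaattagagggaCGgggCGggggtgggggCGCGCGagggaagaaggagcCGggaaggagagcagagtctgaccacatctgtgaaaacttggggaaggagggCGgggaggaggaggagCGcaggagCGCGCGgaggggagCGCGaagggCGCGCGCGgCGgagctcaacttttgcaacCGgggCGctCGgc
Smo (chr6:29735247-29735496, plus strand, GRCm38.p6): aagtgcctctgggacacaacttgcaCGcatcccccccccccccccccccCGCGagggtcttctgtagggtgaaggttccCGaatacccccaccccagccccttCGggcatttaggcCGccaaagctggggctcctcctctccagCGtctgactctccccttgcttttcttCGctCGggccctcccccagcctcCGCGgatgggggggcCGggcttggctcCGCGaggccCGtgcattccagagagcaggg
Sufu (chr19:46396646-46396895, plus strand, GRCm38.p6): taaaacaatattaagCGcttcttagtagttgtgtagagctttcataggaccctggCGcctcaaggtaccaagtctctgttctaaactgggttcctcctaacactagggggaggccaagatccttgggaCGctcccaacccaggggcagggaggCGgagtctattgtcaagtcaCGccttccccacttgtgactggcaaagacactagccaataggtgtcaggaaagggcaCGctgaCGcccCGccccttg

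Promoter windows of 300 bases, which add 50 bases past the start site, were found for 7 of the 9 genes. Those of Ptch1 and Gli2 lie inside the gene and not at its outermost start. That of Hhip spans the outermost start, at 80058060, but is set on a start site inside the gene. The 7 windows held 47 CpGs for Ptch1, 39 for Gli3, 30 for Ihh, 30 for Hhip, 28 for Gli2, 17 for Smo and 12 for Sufu. The median was 7 over 32851 windows. The Ptch1 window was thus at the 98.7 percentile of all windows and that of Sufu at the 61.3 percentile. Genes that fell included the CpG-richest and the CpG-poorest of the 7 windows, with Ihh, Hhip and Gli2 between them. The Gli-binding motif GACCACCCA, searched on both strands, was in none of the 7 windows, and is in 0.253% of all windows. Its inner part CCACCCA, which lies within the longer motif, was in none of the 7 and in 9.30% of all windows. Among Hedgehog target genes of the mesenchyme it was in the windows of Bmp5, Nkx2-3 and Mycn, 3 of 12 windows from 9 genes.

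Other genes of the pathway were taken from a list of 39, of which 35 were measured. In the Dnmt1chip/c tumours 11 of the 35 fell, or 31.4%, beside 21.3% of all genes, and 2 rose, or 5.71%, beside 10.7%. On the coarser step, where 33.8% of genes fell, lay 21 of the 35. The median difference was -0.12 on the log2 scale. Of genes that restrain the signal or process Gli proteins 8 of 15 fell and none rose; 13 of these 15 were on the coarser step, where 33.8% of all genes fell. Tulp3, which carries receptors into the cilium, fell by 0.84 ± 0.07 (SE; limma, adjusted p = 4.37e-04), and Gpr161, the ciliary receptor it delivers, which keeps protein kinase A active, by 0.72 ± 0.06. Tulp3 values were -0.35, -0.57 and -0.46 in Dnmt1chip/c tumours, against 0.35, 0.37 and 0.40 in Dnmt1chip/+ tumours. Gpr161 values were -0.31, -0.45 and -0.40 in Dnmt1chip/c tumours, against 0.37, 0.34 and 0.31 in Dnmt1chip/+ tumours. Both sets were tight within each group and far apart between them.

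The other 6 decreases of this kind were smaller. Mosmo, which helps to clear Smo from the surface, fell by 0.45 and Rab23, a vesicle GTPase, by 0.42. Spop and Cul3, parts of a ubiquitin ligase that degrades Gli proteins, fell by 0.39 and 0.24, and the kinase genes Prkacb and Gsk3b, which prime Gli proteins for cutting, by 0.36 and 0.35. Cul3 was not called with the replicate block, nor without Dnmt1chip/c replicate 2, Dnmt1chip/+ replicate 1 or Dnmt1chip/+ replicate 2. Prkacb lost its call without Dnmt1chip/c replicate 2, Dnmt1chip/+ replicate 1 or Dnmt1chip/+ replicate 3.

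Genes for making and releasing the ligand went both ways. Of 7, 2 were higher, or 28.6%, beside 10.7% of all genes, and 1 was lower, or 14.3%, beside 21.3%. Dhh, the third mammalian ligand, known from nerve and gonad, had values of 0.16, 0.19 and 0.14 in Dnmt1chip/c tumours, against -0.25, -0.28 and -0.14 in Dnmt1chip/+ tumours, and rose by 0.39 ± 0.06 (SE; limma, adjusted p = 0.00322). It was the one Hedgehog ligand called higher, with a probe set off the coarser step. Disp2, a relative of the ligand release protein Disp1, rose by 0.24, and Scube1, a secreted helper of release, fell by 0.69. With the replicate block neither was called. Among the fits that leave out 1 tumour, Disp2 was called only without Dnmt1chip/c replicate 3 and Scube1 only without Dnmt1chip/c replicate 1, and Scube1 was also lost under quantile normalization and with robust eBayes. Disp1 itself differed by -0.26 (limma, adjusted p = 0.0719).

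Of the 5 measured genes for proteins that present or bind the ligand at the cell surface 1 fell, or 20%, beside 21.3% of all genes. It was Gas1, a co-receptor of mesenchymal cells. Its values were -0.14, -0.41 and -0.56 in Dnmt1chip/c tumours, against 0.14, 0.43 and 0.53 in Dnmt1chip/+ tumours, a decrease of 0.73 ± 0.14 (SE; limma, adjusted p = 0.00733). The other co-receptors Boc and Cdon differed by 0.26 and -0.12 and did not pass (limma, adjusted p = 0.114 and 0.309). In the cilium and Smo relay 1 of 8 genes fell, or 12.5%, beside 21.3% of all genes, and none rose. It was Kif3a, a motor subunit needed to build cilia, which fell by 0.53 ± 0.10.

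**Figure D2:**
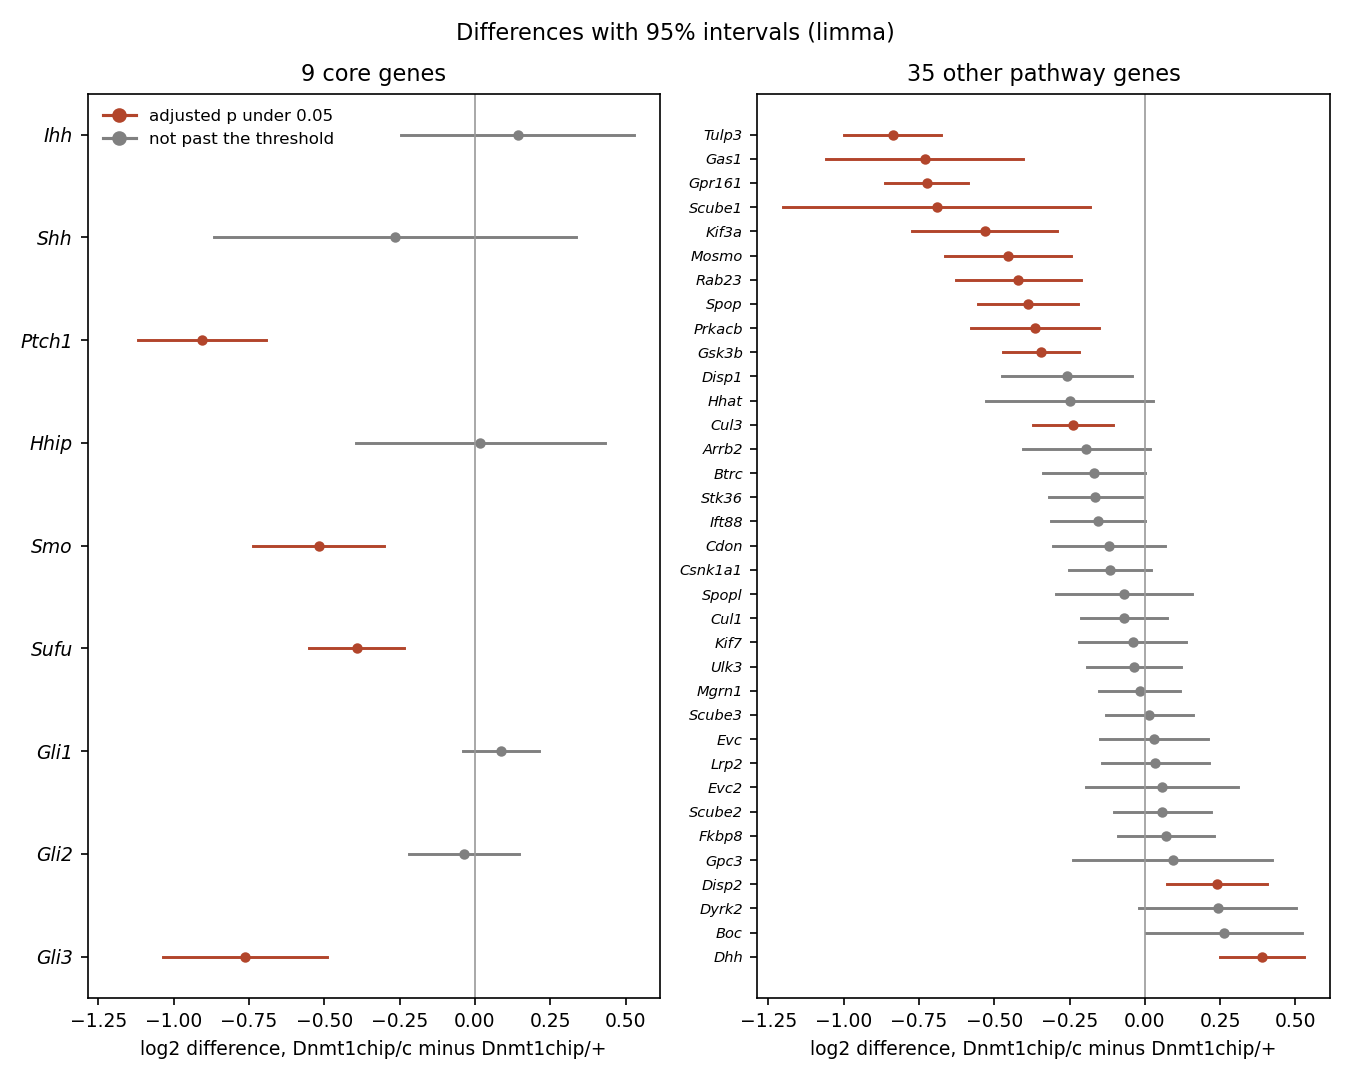
Log2 difference, Dnmt1chip/c minus Dnmt1chip/+ (horizontal axis), with 95% intervals from limma for the 9 core genes (left, by role) and the 35 other pathway genes measured (right, by size), in red where the adjusted p was under 0.05. Decreases reach -0.91 for Ptch1 and -0.84 for Tulp3, and the highest increase is 0.39 for Dhh.

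Genes known to respond to Hedgehog in the mesenchyme of the gut or more widely held decreases about as large as that of Ptch1. Of 18 measured, 10 fell, or 55.6%, beside 21.3% of all genes, none rose, and the median was -0.55 on the log2 scale, 1.46-fold lower. On the coarser step, where 33.8% of all genes fell, lay 12 of the 18. Foxf1, the forkhead factor that marks gut mesenchyme and is a direct target, had values of -0.30, -0.85 and -0.67 in Dnmt1chip/c tumours, against 0.30, 0.40 and 0.64 in Dnmt1chip/+ tumours, as the mean of 2 probe sets that differed by -1.08 and -1.03. It fell by 1.06 ± 0.15 (SE; limma, adjusted p = 0.00276), 2.08-fold. Its relatives Foxf2, and Foxl1, a marker of the fibroblasts beneath the crypts, fell by 0.83 and 0.76.

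Of the secreted factors on this list Bmp4, Bmp5, Bmp7 and Wnt5a fell, and Igf2 and Sfrp1 did not pass. Bmp4, which restrains crypt proliferation, had values of -0.37, -0.91 and -0.40 in Dnmt1chip/c tumours, against 0.37, 0.42 and 0.64 in Dnmt1chip/+ tumours, and fell by 1.04 ± 0.15 (SE; limma, adjusted p = 0.00305). Bmp5 and Bmp7 fell by 0.92 and 0.75. Wnt5a, a Wnt ligand of stromal cells, had values of -0.35, -0.78 and -0.65 in Dnmt1chip/c tumours, against 0.35, 0.68 and 0.64 in Dnmt1chip/+ tumours, and fell by 1.15 ± 0.14 (SE; limma, adjusted p = 0.00132). Tumour 2 was the lowest Dnmt1chip/c tumour for Foxf1, Bmp4 and Wnt5a, as it was for Ptch1, Smo and Sufu.

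Among targets that other cell types also use, Mycn fell by 0.74, the survival gene Bcl2 by 0.59 and the nuclear receptor Nr2f2 by 0.24. The call of Bmp5 was lost without Dnmt1chip/c replicate 2, that of Bcl2 with the replicate block and without Dnmt1chip/+ replicate 2, and that of Nr2f2 with the block and in all fits that leave out 1 tumour except the one without Dnmt1chip/c replicate 3. The cyclin genes Ccnd1 and Ccnd2 differed by 0.20 and 0.025 and did not pass (limma, adjusted p = 0.0753 and 0.844). Igf2, a growth factor, differed by -0.51 with overlapping groups (limma, adjusted p = 0.111). Sfrp1, a secreted Wnt inhibitor, differed by -0.35 (limma, adjusted p = 0.571), with -1.41 in Dnmt1chip/c tumour 2 alone.

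**Figure D3:**
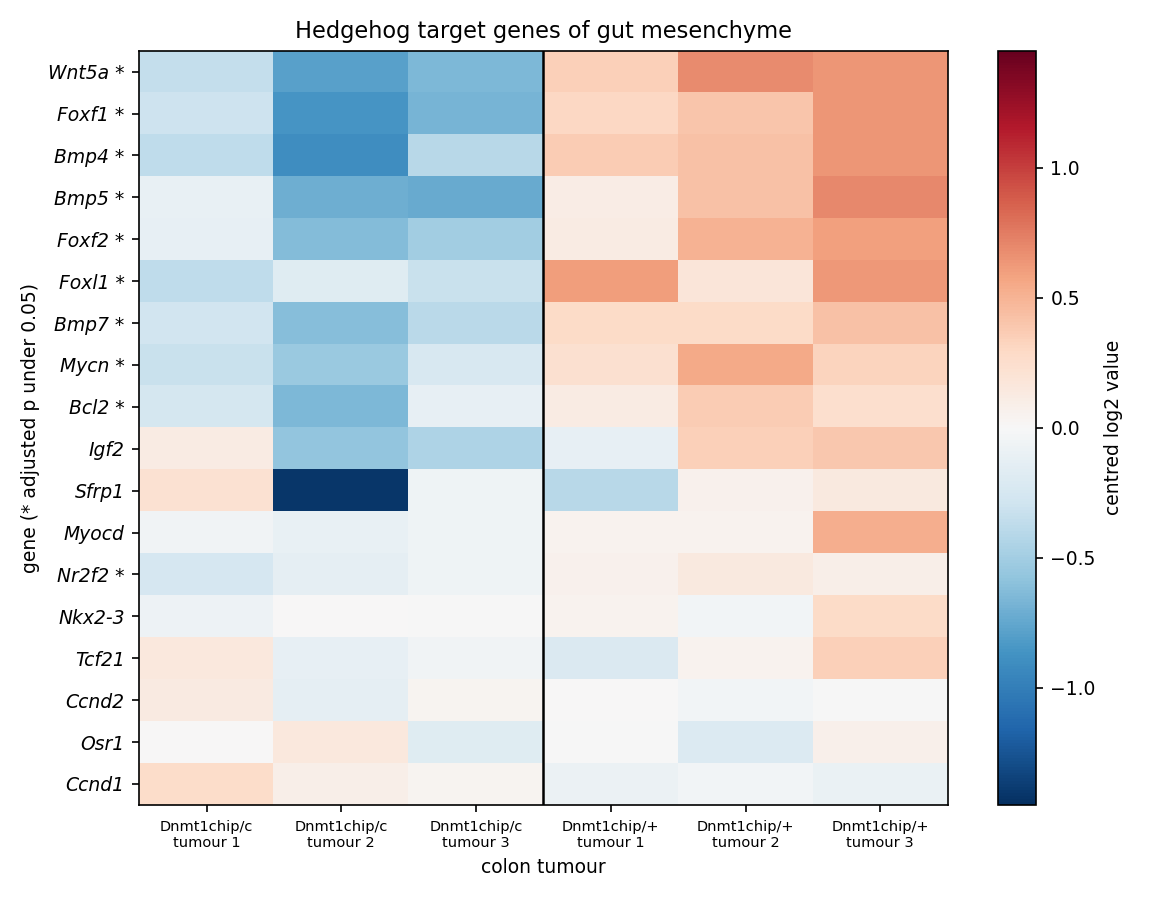
Centred log2 values (colour) of 18 Hedgehog target genes of gut mesenchyme (rows, by difference) in the 3 Dnmt1chip/c tumours (left) and the 3 Dnmt1chip/+ tumours (right), with asterisks at an adjusted p under 0.05. Wnt5a, Foxf1 and Bmp4 head the list, and Dnmt1chip/c tumour 1 is paler than tumours 2 and 3 in most of the upper rows.

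Markers of stromal cells moved with these genes; their counts stand beside decreases in 21.3% of all genes and in 33.8% of those on the coarser step, where most fibroblast and endothelial markers lay. The fibroblast list had 10 of 16 lower and 1 higher, among them Pdgfrb (-1.22), Col6a3 (-0.78) and Col6a1 (-0.54), and their mean centred value ran from -0.39 to -0.080 in Dnmt1chip/c tumours, against 0.069 to 0.36 in Dnmt1chip/+ tumours. Smooth muscle markers fell in 5 of 12 and rose in 1, with list means of -0.19 to -0.039 in Dnmt1chip/c tumours and 0.055 to 0.23 in Dnmt1chip/+ tumours. Among them Kcnmb1 fell by 0.85 and Tagln by 0.58, and Tpm2 rose by 0.58. In endothelial markers 6 of 12 fell, with Cdh5 and Emcn each at -0.91, and 1 rose, Tek at 0.55. Their means were -0.36 to -0.022 in Dnmt1chip/c tumours and 0.047 to 0.18 in Dnmt1chip/+ tumours.

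List means of immune and nerve markers overlapped between the groups. Macrophage markers fell in 4 of 10, or 40%, beside 21.3% of all genes. Most, 9 of 10, lay on the coarser step, where 33.8% of genes fell. Macrophage list means were -0.79 to 0.039 in Dnmt1chip/c tumours and -0.025 to 0.45 in Dnmt1chip/+ tumours. The 3 with the smallest p were C1qc (-0.92), C1qb (-0.94) and Ms4a7 (-0.66), whose calls held, among the fits that leave out 1 tumour, only without Dnmt1chip/c replicate 1. Of 7 T and B cell markers 1 rose, or 14.3%, beside 10.7% of all genes. It was Ms4a1, at 0.40, a call lost without Dnmt1chip/+ replicate 1. T and B cell list means were -0.024 to 0.55 in Dnmt1chip/c tumours and -0.15 to 0.17 in Dnmt1chip/+ tumours. None of 6 glia and neuron markers passed limma's test (1 at an unadjusted p under 0.05), with means of -0.034 to 0.070 in Dnmt1chip/c tumours and -0.32 to 0.10 in Dnmt1chip/+ tumours. General epithelial markers rose in 6 of 10, or 60%, beside 10.7% of all genes, and fell in none. All 10 lay on the coarser step, where 14.8% of genes rose. Cldn7 rose by 0.52, Krt19 by 0.38 and Cldn3 by 0.34. Epithelial list means were 0.074 to 0.16 in Dnmt1chip/c tumours against -0.091 to -0.075 in Dnmt1chip/+ tumours. The part of these markers in the decreases of Hedgehog genes was not tested.

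**Figure D4:**
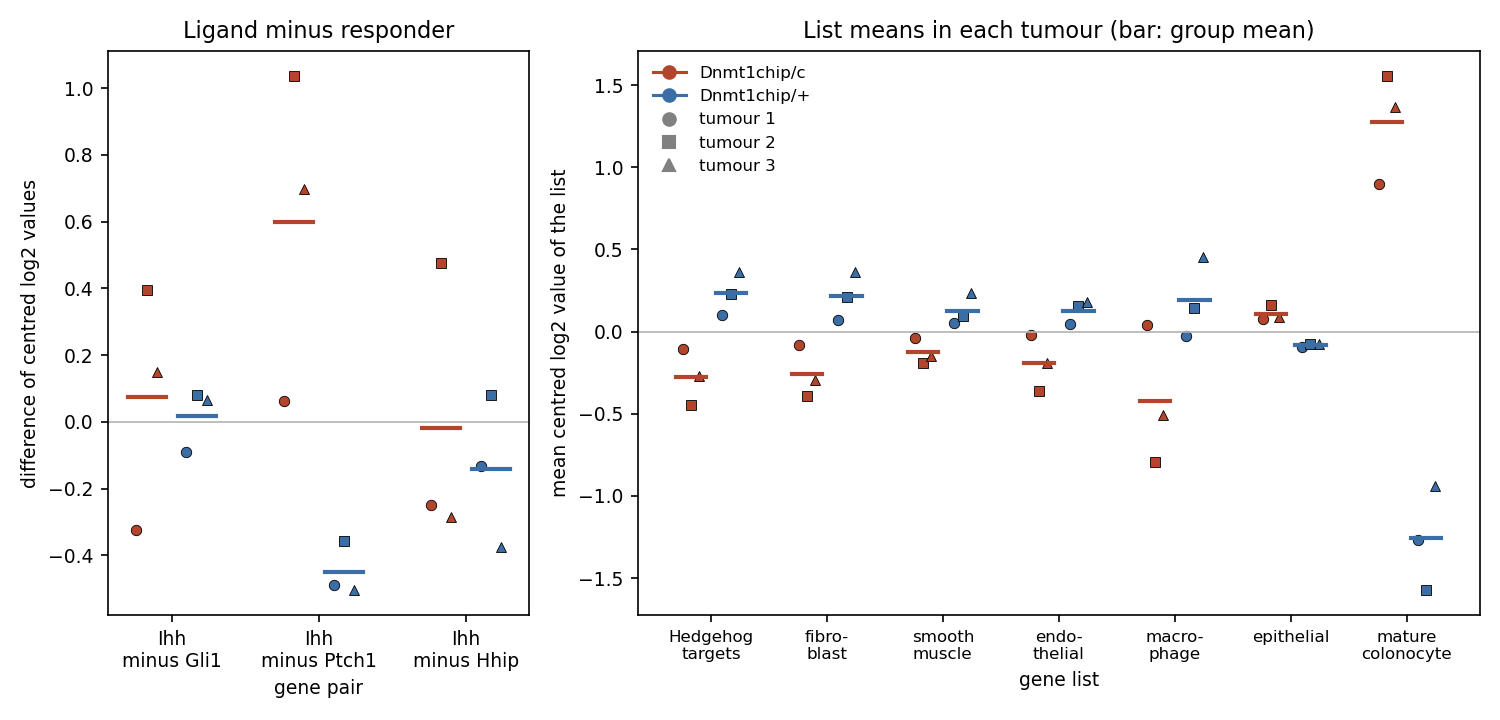
Left, centred log2 value of Ihh minus that of Gli1, Ptch1 or Hhip in each tumour. Right, mean centred log2 value of 7 gene lists in each tumour, with Dnmt1chip/c in red, Dnmt1chip/+ in blue and bars for group means. Ihh minus Ptch1 separates the groups, as Ptch1 alone does, and mature colonocyte markers span -1.57 to 1.55.

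Values taken relative to the mean of the fibroblast markers in the same tumour show how the decreases compare in size. That mean itself differed by -0.47, and single markers of the list by -1.22 to 0.33. The difference of -0.91 for Ptch1 lies within that range, so what remains depends on the markers chosen. Ptch1 minus the fibroblast mean was -0.25, -0.22 and -0.23 in Dnmt1chip/c tumours, against 0.31, 0.12 and 0.16 in Dnmt1chip/+ tumours, a difference of -0.44 with no overlap. The same difference was -0.29 for Gli3, -0.68 for Wnt5a, -0.59 for Foxf1 and -0.57 for Bmp4. For Smo and Sufu it was -0.048 and 0.078, with overlapping groups. These differences were chosen after the values were seen and are given without a test.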

How the data were processed

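Gene expression in 6 mouse colon tumours was measured on arrays after biotin labelling, per the labels' protocols. The authors deposited 1 table of 28856 probe sets, taken as log2 values (base inferred), with each probe set centred on its median; how arrays were normalized and summarised is not given in the sources used here. Of the probe sets 21789 had 1 gene symbol in the platform annotation, 1621 several and 5446 none. The first kind was averaged per gene, which gave 19938 genes, 19856 matched by Entrez number to RefSeq (GRCm38.p6). Groups follow the genotypes in the titles.

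Differences were fitted with limma 3.58.1 in R 4.3.3 (lmFit, eBayes without a trend, all 6 tumours, no block, two-sided) with Benjamini-Hochberg adjustment over all 19938 genes; a gene was called at an adjusted p under 0.05. Centred values hold no intensity, so no filter on dim probe sets was used. No set test was run. Single genes also had an exact permutation test over 20 assignments. The 9 genes and the lists were chosen with earlier results of these data known. Text names the 9 genes, called members of the pathway and target lists, up to 3 markers per list with the smallest p and the 3 nearest genes by profile, predicted genes left out; Disp1, Boc, Cdon, Ccnd1, Ccnd2, Sfrp1, Igf2 and Nkx2-3 were named after their values were seen. Some listed genes are not reported here. Alternatives were robust eBayes, array weights, quantile normalization, arrays set to a median of 0, a block for the replicate number, genes on the coarser value step only (10142 genes, tolerance 0.2 of a step), other thresholds and leaving out each tumour. Arrays carry no counts, so the number of arrays limits the precision. The fit was tested on simulated data.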

Additional observations from a re-analysis of the deposited data

How the results depend on the processing

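The decreases of Ptch1, Gli3, Smo and Sufu kept their direction and their call in every alternative run in which the gene was tested (Gli3 is not on the coarser step). Without each tumour in turn their differences ran from -0.99 to -0.85 for Ptch1, -0.85 to -0.66 for Gli3, -0.58 to -0.43 for Smo and -0.45 to -0.36 for Sufu. Over the same fits the others ran from -0.016 to 0.33 for Ihh, -0.48 to -0.029 for Shh, 0.062 to 0.10 for Gli1, -0.084 to 0.026 for Gli2 and -0.15 to 0.16 for Hhip. Ihh was called (0.33) without Dnmt1chip/c replicate 1 and turned negative (-0.016) without Dnmt1chip/c replicate 2. Gli2 turned positive without Dnmt1chip/c replicate 3 (0.0064) and Dnmt1chip/+ replicate 3 (0.026). Hhip turned negative under quantile normalization (-0.026) and without Dnmt1chip/c replicate 3 (-0.15), Dnmt1chip/+ replicate 1 (-0.024) and Dnmt1chip/+ replicate 2 (-0.087). The cause of these turns was not tested. No Hedgehog gene among the 9 had several probe sets, so the planned fit of each alone was not run.

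Leaving out tumours gave 4 lower and 0 to 1 higher among the 9 genes, 8 to 14 lower and 1 to 2 higher among other pathway genes, 8 to 10 lower and 0 higher among target genes, and 2792 to 4270 lower and 1407 to 2323 higher among all genes. The lowest counts over all genes came without Dnmt1chip/+ replicate 1. Among other pathway genes the higher count was 1 with the replicate block and 0 on the coarser step, where neither Dhh nor Disp2 was tested; at an adjusted p under 0.01 it was 1, with 7 lower. Among target genes 1 was higher with array weights and at an adjusted p under 0.1. At an adjusted p under 0.01, 1192 of all genes were higher and 2319 lower. The replicate block left 2714 genes lower. Correlations of deviations between tumours of the same number were -0.29, -0.31 and -0.22, against 0.052 to 0.29 between tumours of different numbers. Deviations from the mean of 3 tumours are not independent of each other, so these correlations cannot decide whether the numbers pair the tumours. The block took 2 of the 4 residual degrees of freedom. Signal over background was not given, so the flat profiles of Gli1 and Gli2 limit what their small differences show.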
